A study of Mus musculus with 16 samples.

Results

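MicroRNA (miRNA) levels in the injured mouse carotid artery were compared between day 28 and day 14 after wire injury, the late part of the recovery of the vessel wall. The 4 arrays of day 28 and the 3 arrays of day 14, which are 7 of the 16 arrays in the series, were chosen by their labelled time point. All 611 mouse miRNAs with a probe on the array were taken, and none was chosen by its level. The mice of both days were female ApoE-/- animals of the C57BL/6 background, labelled as 6 to 8 weeks old, kept on a western-type diet and injured with a wire in the carotid artery. These mice lack apolipoprotein E in all tissues and are prone to high blood lipids and atherosclerosis. The 3 uninjured carotid arteries shown beside them carried the same genotype, sex, diet and labelled age, and the labels do not say at which age they were taken relative to the injured ones. Each array received total RNA labelled with Cy3, and the labels do not say whether the RNA of an array came from 1 artery or from a pool. The design text of the series states groups of 3 to 4 animals per time point. The labels do not say in so many words that each replicate is 1 animal, so the p-values measure the spread between arrays only. That spread was pooled over all 5 groups of the series, 16 arrays, and not taken from the 7 alone.

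A miRNA is a short RNA that guides the Argonaute protein to messenger RNAs, mainly by pairing of its seed, bases 2 to 8 from the 5′ end, and lowers their translation and stability. A wire strips the endothelium and stretches the media. Smooth muscle cells then lose contractile proteins, divide, migrate and build a neointima, while leukocytes enter the wall, and later the cells can regain contractile features. The miR-143 and miR-145 pair is known for its abundance in contractile smooth muscle, miR-126 for endothelium, miR-223 for myeloid cells, and the miR-29 family for pairing with collagen and other matrix messages. The measurements are of whole arteries, in which fewer cells of a type and less RNA per cell cannot be told apart.

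Between day 14 and day 28, members of the miR-30, miR-26, miR-29 and miR-101 families and the smooth muscle pair miR-143 and miR-145 rose, while 4 of the 6 tested miRNAs of the X-linked cluster from miR-322 and miR-503 to miR-542 and 8 of the 47 of the imprinted Dlk1-Dio3 locus on chromosome 12 fell. Of all 321 tested, 9.66% rose and 5.61% fell. Not all of these held when the slide an array lay on entered the fit: miR-143 no longer passed, and 2 of the 4 X-linked falls did. On the 1 slide that held arrays of both days, 0 miRNAs passed the adjustment. The mature sequences of miRNAs that carry the rises and falls named above are shown first, because several of those that moved together share a seed. They were taken from RefSeq (GRCm38.p6), which held 168 of the 321 tested miRNAs and 36 of the 49 called ones under a matching name. Each is written 5′ to 3′ with its seed in capitals. The first block holds miRNAs that rose. The seed is the same in miR-30c and miR-30e, in miR-26a and miR-26b, and in miR-29b and miR-29c. The strands miR-30a* and miR-30e* share a seed that differs from that of miR-30c and miR-30e. Within each of these pairs some of the other bases differ.
miR-30c: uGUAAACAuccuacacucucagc
miR-30e: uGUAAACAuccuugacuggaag
miR-26a: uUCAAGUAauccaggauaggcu
miR-26b: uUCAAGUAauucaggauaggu
miR-29b: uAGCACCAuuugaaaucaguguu
miR-29c: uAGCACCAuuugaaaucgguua
miR-30a*: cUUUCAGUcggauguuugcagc
miR-30e*: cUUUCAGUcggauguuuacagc
miR-101a: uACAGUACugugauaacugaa
miR-338-3p: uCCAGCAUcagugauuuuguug

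The second block holds miRNAs that fell. It shows that those of 1 genomic cluster need not share a whole seed: miR-322 has the seed of the miR-15/16 family, which miR-16 is printed to show. The seed of miR-503 differs from it in the last base only, while miR-542-3p, miR-431 and miR-379 have other seeds.
miR-322: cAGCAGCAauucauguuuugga
miR-16: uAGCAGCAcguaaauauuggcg
miR-503: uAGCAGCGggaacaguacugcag
miR-542-3p: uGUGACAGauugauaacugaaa
miR-431: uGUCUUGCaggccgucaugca
miR-379: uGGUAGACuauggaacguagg
miR-34b-5p: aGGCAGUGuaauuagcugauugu
miR-675-3p: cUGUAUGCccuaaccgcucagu
miR-223: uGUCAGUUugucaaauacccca

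Of the 321 miRNAs tested, each detected (flagged well above background by the scanner software) throughout at least 1 of the 5 groups of the series, 49 differed between day 28 and day 14 at an adjusted p under 0.05 (15.3%). Of these, 31 were higher at day 28 (9.66%) and 18 were lower (5.61%). The test was limma's moderated test with Benjamini-Hochberg adjustment over all 321. Levels are log2 values of the signal divided by each array's 75th percentile over the probes detected on all arrays, with a floor at -5.79, and the levels of different miRNAs are not on 1 scale because probes bind unequally. Most differences were small: the 49 ran from log2 -1.36 to 1.67, 8 of them were at least 1 in size, and the median over all tested miRNAs was 0.05. The arrays of the days did not overlap for 50 miRNAs that were higher at day 28 (15.6% of those tested) and 28 that were lower (8.72%). The share of the called miRNAs that were higher, 63.3% here, depended on how arrays were put on a common scale: it was 52% with the percentile taken over all mouse probes (13 of 25), 45.2% with median scaling (14 of 31) and 44.7% with quantile normalization (17 of 38). It also depended on the signal taken for a miRNA. With the percentile scaling kept, the share was 28% with Agilent's total gene signal (7 of 25) and 32% with the authors' value table (8 of 25). The same 49 all had an unchanged direction under each of these.

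The arrays differed in ways that bear on these counts. The 75th percentile of the signal was 518.5 to 1432 intensity units at day 14 and 566.5 to 1097 at day 28, and 285 to 335 and 287 to 330 miRNAs were detected. All day 14 and uninjured arrays and replicates 3 and 4 of day 28 lay on 1 slide (slide 2), and replicates 1 and 2 of day 28 lay on the other. Among the day 28 arrays, the median absolute difference between the slides was log2 0.23, against a median SD of 0.30 over the 4. Replicate 1 of day 14 and replicate 2 of day 28 stood apart in single groups of miRNAs, described below with their values. By number of miRNAs, other arrays stood as far off. More than log2 1 from the mean of the other arrays of their day were 46, 18 and 40 miRNAs on day 14 replicates 1 to 3. On day 28 replicates 1 to 4 the numbers were 34, 33, 13 and 34. With slide as a block, which by construction makes the difference that of replicates 3 and 4 of day 28 against day 14, 28 miRNAs were called (8.72%), 20 higher (6.23%) and 8 lower (2.49%), and 25 of them were among the 49. In the fit to slide 2 alone, 0 passed the adjustment in limma, with 58 higher and 23 lower at an unadjusted p under 0.05, a smallest adjusted p of 0.0667, and 42 of the 49 among those at an unadjusted p under 0.05. Without replicate 1 of day 14 and replicate 2 of day 28 together, 13 were called (4.05%), 7 higher (2.18%) and 6 lower (1.87%). In each of these 3 fits all 49 kept their direction, but the slide block and slide 2 alone give the same difference for each miRNA. All 3 reuse arrays on which the 49 were called, so a kept direction is no independent test.

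**Figure D1:**
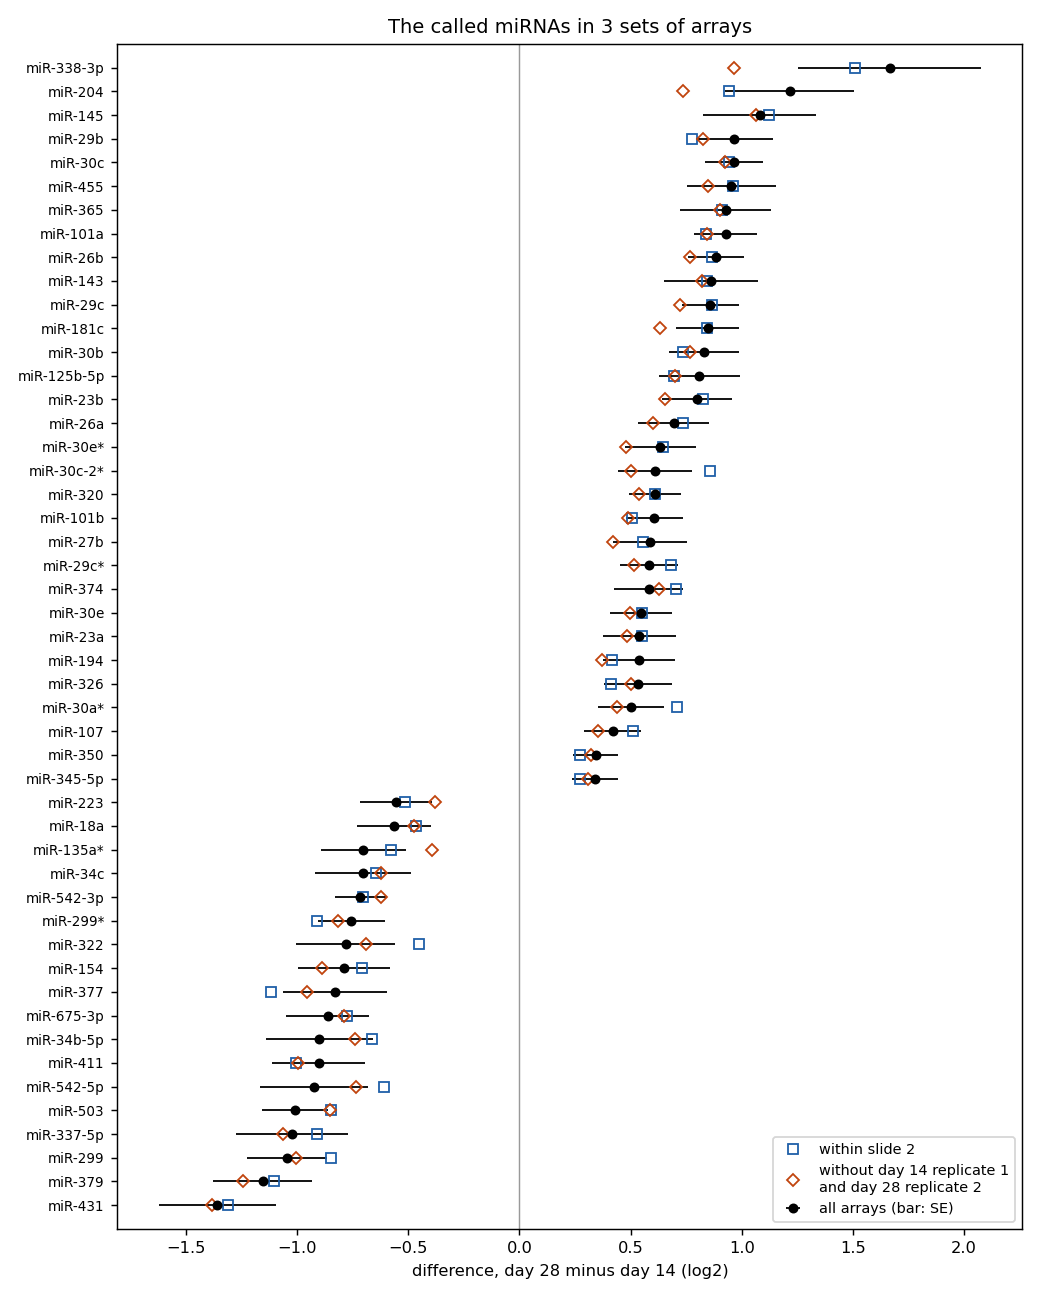
Difference between day 28 and day 14 (log2, x axis) for the 49 called miRNAs: black points give all 7 arrays with the SE as a bar, blue squares the arrays of slide 2 only, and orange diamonds the arrays without replicate 1 of day 14 and replicate 2 of day 28. The SE comes from the fit to all 16 arrays of the series. All 3 symbols lie on the same side of 0 for every miRNA, from miR-338-3p at 1.67 to miR-431 at -1.36, and the symbols of miR-338-3p and miR-204 lie farthest apart among those that were higher.

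The 13 miRNAs called in the fit without both arrays were also called with slide as a block. Those higher at day 28 were miR-30c, miR-26b, miR-29c, miR-101a, miR-181c, miR-29b and miR-30b. Those lower were miR-503, miR-542-3p, miR-299, miR-431, miR-379 and miR-299*, the last of which falls outside the rule by which miRNAs were named and is given after its value was seen.

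Members of the miR-30 family are expressed in many tissues. Of the 8 on the list for this family, all of them tested, 5 rose (miR-30c, miR-30b, miR-30e, miR-30e* and miR-30a*), against 9.66% of all tested miRNAs. The list median was log2 0.52, against 0.05 over all tested miRNAs. A further strand of the family that the list lacks, miR-30c-2*, also rose (0.61, adjusted p = 0.0257; added after its value was seen). The level of miR-30c was -1.53, -1.41 and -1.54 on the day 14 arrays and -0.56, -0.45, -0.48 and -0.62 on the day 28 arrays. The groups did not overlap, and each day 28 array lay well above every day 14 array. The difference was 0.97 ± 0.13 (SE; 1.95-fold, adjusted p = 0.00118 by limma), 0.94 within slide 2 and 0.92 without both arrays. Uninjured arteries had -0.02, -0.25 and -0.56. Against them miR-30c was lower by 1.22 at day 14 (adjusted p = 2.04e-05) and differed by -0.25 at day 28 (adjusted p = 0.177). For miR-30b the levels were -2.05, -2.07 and -2.06 at day 14 and -1.24, -1.03, -1.14 and -1.51 at day 28, a rise of 0.83 ± 0.16 (SE; adjusted p = 0.00464; 0.0663 with the total gene signal and 0.0542 with the authors' value table). Its day 28 values overlapped the uninjured range of -1.88 to -1.27. For miR-30e the rise was 0.55 ± 0.14 (SE; adjusted p = 0.0199), which did not pass in the fit with the slide block (adjusted p = 0.0714). In the mouse genome (GRCm38.p6) miR-30c is encoded at chr1:23291714-23291736 (plus strand) and at chr4:120769584-120769606 (minus strand), the latter next to miR-30e at chr4:120772660-120772681 (minus strand). Both loci on chromosome 4 are within the span of Nfyc, which encodes a subunit of the transcription factor NF-Y; whether they are exonic or intronic was not analysed here.

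By the rule for likeness, the 5 tested miRNAs with the highest Pearson correlation to miR-30c over the 7 arrays were miR-143 (r = 0.988), miR-30e (0.984), miR-23a (0.983), miR-30b (0.973) and miR-101a (0.973). These values describe arrays of only 2 days that also share slides and signal strength, and they carry no test.

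Both members of the miR-26 family rose (against 9.66% of all tested miRNAs). These miRNAs lie within genes for small phosphatases of RNA polymerase II, miR-26b in Ctdsp1 (chr1:74394324-74394344, plus strand, GRCm38.p6) and miR-26a in Ctdspl and Ctdsp2. For miR-26b the day 14 arrays had 0.38, 0.45 and 0.52, and the day 28 arrays had 1.12, 1.59, 1.40 and 1.24, with no overlap. It rose by 0.88 ± 0.13 (SE; 1.85-fold, adjusted p = 0.00118), and the uninjured arrays, at 0.99 to 1.38, overlapped those of day 28. For miR-26a the levels were 1.81, 1.93 and 2.04 at day 14 and 2.44, 2.72, 2.71 and 2.61 at day 28, a rise of 0.69 ± 0.16 (SE; adjusted p = 0.0118). The call of miR-26a ended in all 5 other scalings and signal measures listed above, with adjusted p from 0.0662 (median) to 0.24 (quantiles, at a difference of 0.31). It also ended with no scaling, where 0 miRNAs were called, and without both arrays (adjusted p = 0.124).

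Of the 5 tested members of the miR-29 family, 3 rose (miR-29b, miR-29c and miR-29c*), against 9.66% of all tested miRNAs, with a median of 0.58. On the arrays of day 14 miR-29c had 1.70, 2.09 and 2.05, and on those of day 28 it had 2.74, 2.85, 2.88 and 2.75. Every day 28 array lay above every day 14 array and below every uninjured array (3.01 to 3.46). The rise was 0.86 ± 0.13 (SE; 1.81-fold, adjusted p = 0.00118), and miR-29c was below the uninjured level at both days, by 1.31 at day 14 (adjusted p = 8.88e-06) and with a difference of -0.45 at day 28 (adjusted p = 0.0194). The levels of miR-29b were 2.07, 2.20 and 2.16 at day 14, 3.19, 3.42, 3.07 and 2.77 at day 28, and 2.86, 2.69 and 2.40 in uninjured arteries. It rose by 0.97 ± 0.17 (SE; adjusted p = 0.00295), and its difference from uninjured at day 28 was 0.46 (adjusted p = 0.0624). With quantile normalization the rises were 0.51 (miR-29c) and 0.62 (miR-29b), both still called. The third member with this seed, miR-29a, had a difference of 0.33 and was not called (adjusted p = 0.145; it falls outside the naming rule), but with slide as a block it was called, at 0.53 (adjusted p = 0.0222), which makes 4 of the 5. The genes for miR-29b and miR-29c lie side by side on the plus strand of chromosome 1, at chr1:195037091-195037113 and chr1:195037600-195037621, in the span of A330023F24Rik, and miR-29b has another copy at chr6:31063025-31063047 (minus strand).

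The level of miR-101a, which is known for pairing with the messages of the histone methylase Ezh2, was -1.28, -1.25 and -1.04 at day 14 and -0.21, -0.14, -0.32 and -0.37 at day 28. These groups did not overlap, and the rise was 0.93 ± 0.14 (SE; 1.90-fold, adjusted p = 0.00132), 0.84 within slide 2. The uninjured arrays, from -0.90 to -0.36, lay above day 14, and the highest of them reached the lowest of day 28. The gene lies at chr4:101346957-101346977 (minus strand). Of the 7 tested miRNAs of the miR-23/27/24 clusters, 3 rose (miR-23b by 0.80, miR-27b by 0.59 and miR-23a by 0.54), against 9.66% of all tested miRNAs. All 7 differences were positive, and the median was 0.38. The calls of miR-27b and miR-23a held in 20 and 17 of 41 alternatives, and that of miR-23b in 32. Of the miR-181 family, known from lymphocyte and vascular studies, 1 of 4 rose (against 9.66% of all tested miRNAs): miR-181c, from -3.07, -2.75 and -2.52 to -2.15, -1.71, -1.84 and -2.04, by 0.85 ± 0.14 (SE; adjusted p = 0.00204). The other three had differences of 0.82 (miR-181a), 0.40 (miR-181b) and 0.24 (miR-181d), and replicate 2 of day 28 was the highest of the 4 in miR-181a (-0.83, others -2.68 to -2.28).

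**Figure D2:**
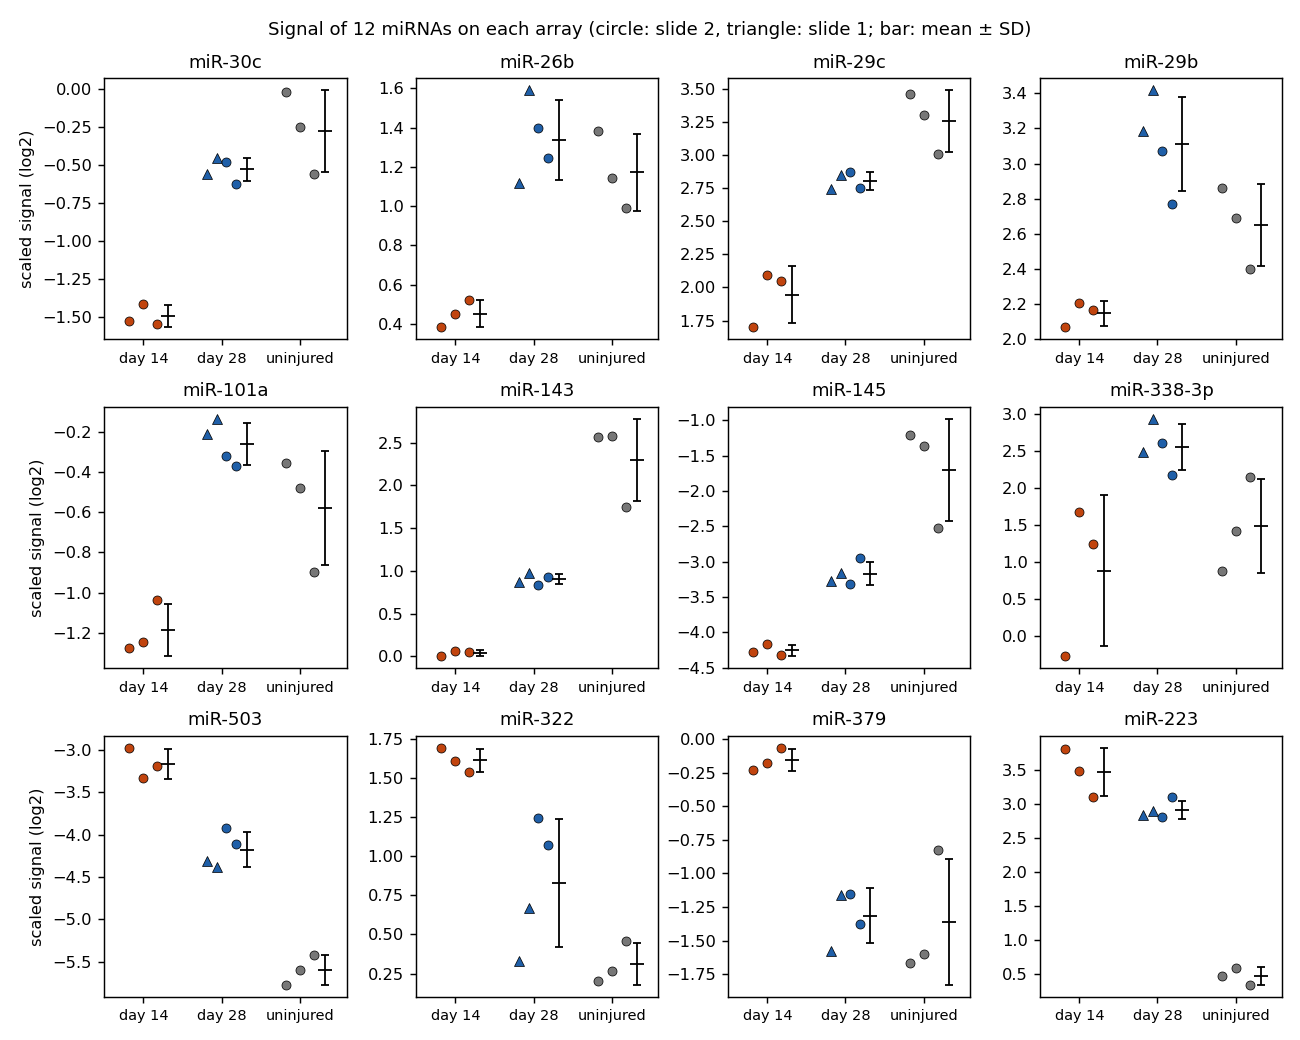
Level of 12 miRNAs on each array of day 14, day 28 and uninjured arteries (y axis, log2 of the scaled signal, with a range of its own in each panel; circles slide 2, triangles slide 1; bars mean ± SD, n = 3, 4 and 3). In each panel but that of miR-223, where 1 day 28 array (3.10) reached the lowest day 14 array, the arrays of the injured days lie apart, and for miR-143 and miR-145 both days lie below uninjured arteries.

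Of the contractile smooth muscle miRNAs, 3 of the 5 tested rose (against 9.66% of all tested miRNAs): miR-143, miR-145 and miR-204. The list's median was 0.86. The arrays of day 14 had miR-143 levels of 0.0043, 0.06 and 0.06, and those of day 28 had 0.87, 0.98, 0.84 and 0.93. Uninjured arteries stood clear of both days, at 2.57, 2.58 and 1.75. The rise from day 14 was 0.86 ± 0.21 (SE; 1.82-fold, adjusted p = 0.0159), and miR-143 remained below uninjured by 1.39 at day 28 (adjusted p = 0.000317), against 2.26 at day 14 (adjusted p = 5.84e-06). Its adjusted p was 0.07 with slide as a block and 0.124 without both arrays, at differences of 0.84 and 0.82, and the call also ended with the percentile over all mouse probes (0.0667), the total gene signal (0.156) and the authors' value table (0.126). For miR-145, made from the same primary transcript as miR-143, the levels were -4.28, -4.16 and -4.32 at day 14, -3.27, -3.15, -3.31 and -2.95 at day 28, and -1.21, -1.37 and -2.53 in uninjured arteries. It rose by 1.08 ± 0.26 (SE; 2.12-fold, adjusted p = 0.013), and was below uninjured by 1.47 at day 28 (adjusted p = 0.00102). Its adjusted p was 0.0466 with slide as a block and 0.102 without both arrays. With normexp background the rise of miR-145 shrank to a difference of 0.47 (adjusted p = 0.28), and its call ended with the total gene signal (0.0941) and the authors' value table (0.0768) too. The level of miR-204, which lies within the span of Trpm3, was -3.34, -2.19 and -2.60 at day 14 and -1.44, -1.003, -1.74 and -1.80 at day 28, a rise of 1.22 ± 0.29 (SE; adjusted p = 0.0135). Without both arrays the difference was 0.74 (adjusted p = 0.172), and the slide block ended the call as well (adjusted p = 0.109). The other tested members, miR-1 and miR-133a, which striated muscle also expresses, had differences of 0.26 and -0.26 and were not called, and that of miR-133a turned to 0.11 within slide 2.

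The summed signal of the smooth muscle list (log2) ranged between 1.64 and 1.95 at day 14, between 1.98 and 2.29 at day 28 and between 3.46 and 3.70 in uninjured arteries. Much of this sum came from miR-1 and miR-133a, which the striated muscle list holds too, so it does not follow miR-143 and miR-145 alone. The defining members of the smooth muscle list, miR-143 and miR-145, were well above background on all 7 injured arrays, as was the endothelial miR-126-3p, whose difference was 0.05 (adjusted p = 0.894; quantile normalization and 5 other settings turned its sign). The labelled tissue thus carried the markers of a vessel wall. The second endothelial miRNA, miR-126-5p, was not tested.

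The fat-associated list had 2 of 6 tested members that rose (against 9.66% of all tested miRNAs), miR-455 by 0.95 ± 0.20 (SE; adjusted p = 0.00718) and miR-365 by 0.93 ± 0.20 (SE; adjusted p = 0.00918), with a median of 0.63. Both calls ended without both arrays (adjusted p = 0.0843 and 0.0709) and with the authors' value table (0.0554 for each). The levels of miR-365 were -2.64, -2.61 and -2.06 at day 14 and -1.25, -1.73, -1.30 and -1.75 at day 28. The member with the next smallest p, miR-193, had a difference of 0.54 (adjusted p = 0.12). The list's summed signal lay between 1.62 and 1.72 at day 14, between 1.93 and 2.63 at day 28 and between 3.24 and 3.68 in uninjured arteries. It moved in the same direction as the smooth muscle list, and its part in the other differences was not tested.

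The largest rise of all belonged to miR-338-3p, which is abundant in oligodendrocytes and neurons and lies within the span of Aatk on chromosome 11. Its levels were -0.27, 1.68 and 1.24 at day 14, 2.48, 2.93, 2.61 and 2.18 at day 28, and 0.88, 1.42 and 2.15 in uninjured arteries. The arrays of the injured days did not overlap, but replicate 1 of day 14 lay far below the other two. The difference was 1.67 ± 0.41 (SE; 3.17-fold, adjusted p = 0.0159), and without both arrays it was 0.96 (adjusted p = 0.169). The call also ended without replicate 1 of day 14 alone (1.09, adjusted p = 0.07) and under the slide block (adjusted p = 0.0959). It was the only one called of the 12 tested miRNAs of the neuronal list, while 9.66% of all tested miRNAs rose. Of these 12, 3 were higher at an unadjusted p under 0.05. All 12 had a positive difference, with a median of 0.74. The summed neuronal signal was 0.48 on replicate 1 of day 14, against 2.26 and 1.97 on replicates 2 and 3, 2.51 to 3.41 at day 28 and 2.04 to 3.19 in uninjured arteries. The neuronal miR-124 and miR-137 were at the floor on replicate 1 of day 14 and were at -2.42 to -1.97 on the other day 14 arrays. Without that array and replicate 2 of day 28, the list's median was 0.06, and that over all tested miRNAs in the same fit was 0.06. The part of neuronal RNA in the rise of miR-338-3p was not tested.

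Other marker lists were followed in the same way. Of the erythroid miRNAs, all 3 had a positive difference without a call (miR-144 0.90, miR-451 0.72 and miR-486 0.63; adjusted p = 0.2, 0.239 and 0.423), and their summed signal was 3.93 to 4.64 at day 14 and 4.64 to 5.38 at day 28, with both ranges meeting. Of the epithelial miRNAs, 6 were tested and 0 called in limma (0 at an unadjusted p under 0.05). Their summed signal was 1.23 on replicate 2 of day 28, against -1.96 to -0.93 on the other day 28 arrays and -1.77 to -1.65 at day 14. Their median difference was 0.72 with all arrays and 0.43 within slide 2. The endocrine miR-375 was also highest on replicate 2 of day 28 (-3.20, others -5.79 to -5.03), and its difference of 0.23 turned to -0.61 within slide 2. Of the striated muscle miRNAs, 4 were tested and 0 called (1 lower at an unadjusted p under 0.05). Among them miR-206, a miRNA of skeletal muscle, ranged from -2.04 to 0.30 at day 14 and from -3.55 to -1.25 at day 28, the largest difference of any tested miRNA (-2.03 ± 0.80 SE) but with overlapping arrays (adjusted p = 0.128). The heart and muscle miRNAs miR-208a, miR-208b and miR-499 were at the floor on all 7 arrays, as was the liver miR-122. Whether these lists had a part in the other differences was not tested.

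**Figure D3:**
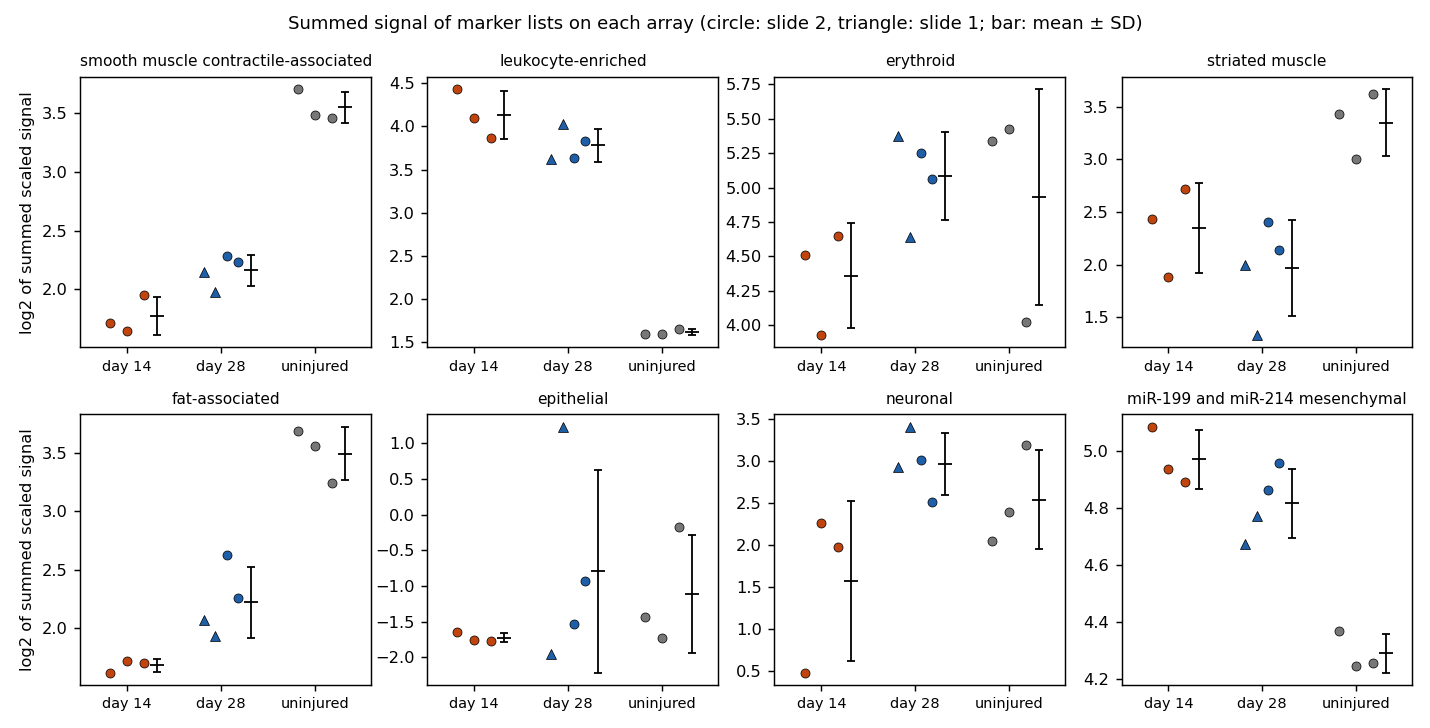
Summed signal of 8 marker lists on each array (y axis, log2; circles slide 2, triangles slide 1; bars mean ± SD, n = 3 at day 14, 4 at day 28 and 3 uninjured). The smooth muscle and fat-associated sums of day 28 lie above those of day 14 and below those of uninjured arteries. For smooth muscle the 2 days are narrowly apart (highest at day 14 1.95, lowest at day 28 1.98), and the sum includes miR-1 and miR-133a of the striated muscle list. Replicate 1 of day 14 is lowest in the neuronal panel (0.48), and replicate 2 of day 28 is highest in the epithelial panel (1.23).

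Among the miRNAs that fell, the X-linked cluster that runs from miR-322 and miR-503 to miR-542 and miR-450 had 4 falls among its 6 tested members. Of all tested miRNAs 5.61% fell. The list median was -0.75. The 2 others, miR-450a-5p and miR-450b-3p, were at the floor at both days. Of these miRNAs, miR-322 and miR-503 belong to the miR-15/16 family, whose members are known to restrain the cell cycle and which are induced as muscle precursors leave it. All 4 that fell lie on the minus strand between 53049415 and 53054327 of chromosome X (GRCm38.p6), a stretch of 4.9 kb, and miR-503 and miR-322 are within the span of C430049B03Rik. The levels of miR-503 were -2.98, -3.34 and -3.19 at day 14 and -4.31, -4.38, -3.92 and -4.11 at day 28. It was lower on every day 28 array than on any of day 14. The fall was -1.01 ± 0.15 (SE; 2.02-fold, adjusted p = 0.00118), -0.85 within slide 2 and -0.85 without both arrays. It was -0.51 in the mean over probes, still called, and -0.47 with normexp background, where it was not (adjusted p = 0.138). Uninjured arteries had -5.77, -5.59 and -5.42, so miR-503 was above them by 2.42 at day 14 (adjusted p = 1.36e-07) and by 1.41 at day 28 (adjusted p = 1.15e-05). For miR-322 the levels were 1.69, 1.61 and 1.54 at day 14, 0.33, 0.67, 1.24 and 1.07 at day 28, and 0.20, 0.27 and 0.46 in uninjured arteries. Its fall of -0.78 ± 0.22 (SE; adjusted p = 0.0318) was -0.45 within slide 2, where both day 28 arrays were the higher of the 4 (adjusted p = 0.227 with slide as a block). Its call held in 26 of 41 alternatives.

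Both arms of miR-542 fell. The 3p arm had -4.78, -5.26 and -4.95 at day 14, and at day 28 it was well above background on 2 of 4 arrays, so that its fall was at least 1.57-fold (fitted difference -0.72 ± 0.12 SE, adjusted p = 0.00175). Here a fold is called at least where an array of the lower group was not well above background, and sets such arrays at their lowest detectable signal. Values this close to the floor rest on it: with a floor 2 times as high, or with normexp background (-0.11, adjusted p = 0.914), miR-542-3p was not called. The 5p arm had -2.87, -3.13 and -3.29 at day 14 and -4.41, -4.27, -3.67 and -3.74 at day 28, a fall of -0.93 ± 0.24 (SE; adjusted p = 0.0222; 0.177 with slide as a block, and 0.19 with normexp background at -0.45). Of the rest of the miR-15/16 family, miR-15a, miR-15b, miR-16, miR-195 and miR-497 were not called, with differences from -0.13 to 0.33, of which miR-16 was named by the rule (0.28, adjusted p = 0.226). With slide as a block miR-195 was called higher (0.60, adjusted p = 0.0305). Of the other X-linked cluster followed, miR-188 to miR-532, 6 were tested and 0 called in limma (0 at an unadjusted p under 0.05), with a median of -0.12. Its member with the largest difference, miR-188-5p, was at -0.57 (adjusted p = 0.418).

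The imprinted Dlk1-Dio3 locus on chromosome 12, whose miRNAs are made from the maternal chromosome and are abundant in the embryo and in growing tissue, gave 8 of the 18 falls. Of its 73 listed miRNAs, 72 had a probe and 47 were tested. In these 47, 8 fell (against 5.61% of all tested miRNAs) and 39 were not called. A negative difference was held by 44, and the median was -0.51 against 0.05 over all tested miRNAs. The locus's miRNAs are transcribed together, so they are not independent. Its members that fell were miR-431, miR-379, miR-299, miR-337-5p, miR-411, miR-377, miR-154 and miR-299*. Of these, 6 with a RefSeq position lie on the plus strand between 109585818 and 109740574 of chromosome 12, over 154.8 kb, with miR-431 (chr12:109590459-109590479) and miR-337-5p (chr12:109585818-109585839) within the span of the retrotransposon-like gene Rtl1.

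The levels of miR-431 were -2.06, -1.94 and -2.09 at day 14 and -3.51, -3.36, -3.21 and -3.47 at day 28. The day 14 arrays lay close together and above all of day 28. Its fall, -1.36 ± 0.26 (SE; 2.57-fold, adjusted p = 0.00467), was the largest of the called miRNAs, and was -1.31 within slide 2 and -1.38 without both arrays. It was -0.68 in the mean over probes and -0.89 with normexp background, and was called in both. Uninjured arteries had -3.48, -3.28 and -2.42, so that 2 of 3 lay among the day 28 arrays. For miR-379, encoded at chr12:109709065-109709085 (plus strand), the levels were -0.23, -0.18 and -0.07 at day 14, -1.58, -1.16, -1.15 and -1.37 at day 28 and -1.67, -1.60 and -0.83 in uninjured arteries. It fell by 1.16 ± 0.22 (SE; 2.23-fold, adjusted p = 0.00467). Against uninjured, miR-379 was higher by 1.21 at day 14 (adjusted p = 0.00141), and its difference at day 28 was 0.05 (adjusted p = 0.929). For miR-299 the levels were -2.82, -2.79 and -2.65 at day 14 and -3.97, -4.02, -3.38 and -3.82 at day 28, a fall of -1.05 ± 0.18 (SE; adjusted p = 0.00259), which was -0.26 in the mean over probes and -0.59 with normexp background, still called. On the uninjured arrays, replicate 3 was the highest of the 3 in each of miR-431, miR-379 and miR-299.

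For the other called members the falls were -1.02 (miR-337-5p), -0.90 (miR-411), -0.83 (miR-377), -0.79 (miR-154) and -0.76 (miR-299*). With slide as a block 6 members of the locus were called and without both arrays 4, at list medians of -0.64 and -0.69. The calls of miR-337-5p and miR-154 ended under both, and that of miR-377 held in 24 of 41 alternatives. The summed signal of the locus was 3.26 to 3.57 at day 14 and 2.62 to 2.98 at day 28, with no overlap, and 2.83 to 3.75 in uninjured arteries, which spanned both.

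**Figure D4:**
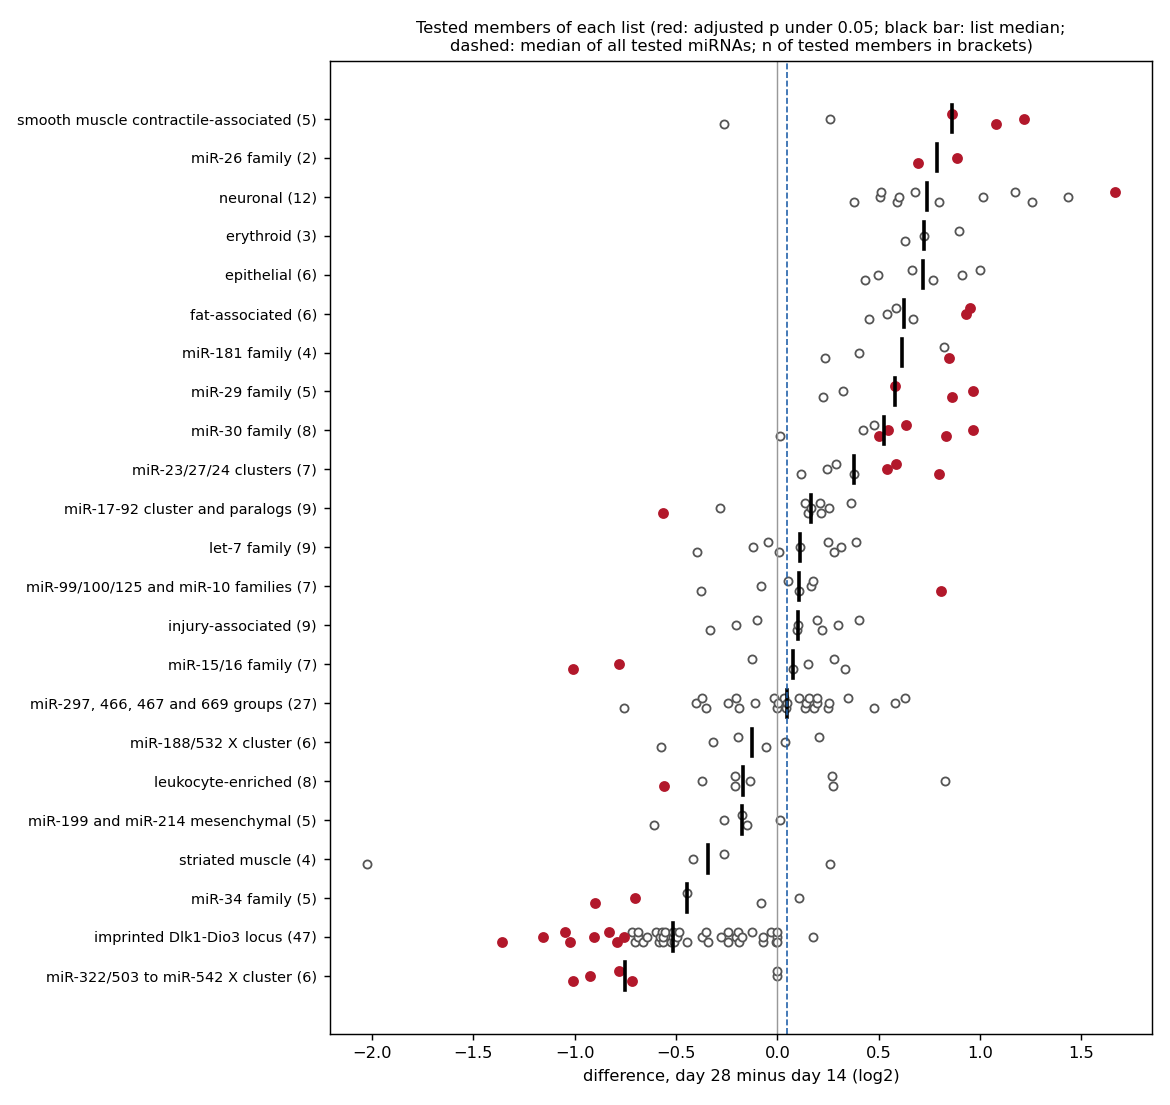
Difference between day 28 and day 14 (log2, x axis) of each tested member of the lists with at least 2 tested members (rows, with the number tested in brackets); filled red points were called, black bars are list medians and the dashed line is the median of all tested miRNAs (0.05). The members of the Dlk1-Dio3 locus lie from -1.36 to 0.18, all but 3 of the 47 below 0, and those of the miR-30 family from 0.01 to 0.97.

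Members of the miR-34 family, known as targets of the tumour suppressor p53, gave 2 falls among 5 tested (against 5.61% of all tested miRNAs), with a median of -0.45. The levels of miR-34b-5p were 0.37, 0.16 and 0.0032 at day 14 and -1.01, -0.91, -0.28 and -0.69 at day 28, a fall of -0.90 ± 0.24 (SE; 1.87-fold, adjusted p = 0.0241). For miR-34c the fall was -0.70 ± 0.22 (SE; adjusted p = 0.0426). Both were still above uninjured arteries at day 28, by 0.71 (adjusted p = 0.0463) and 0.89 (adjusted p = 0.00862). Their relative miR-34a, with the seed of miR-34b-5p, had 3.51, 3.40 and 2.97 at day 14 and 2.44, 3.00, 2.87 and 3.07 at day 28, with overlap and no call (-0.45, adjusted p = 0.158). The adjusted p of both miR-34b-5p and miR-34c was 0.177 with slide as a block, and their calls held in 27 and 17 of 41 alternatives.

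Just 1 miRNA, miR-675-3p, was detected throughout 1 day and on no array of the other; it is made from the imprinted RNA H19 (chr7:142577078-142577099, minus strand, GRCm38.p6). At day 14 it had -4.75, -5.06 and -4.71, and at day 28 3 of 4 arrays were at the floor and the other was at -5.45 without being well above background. It was lower at day 28 by at least 1.75-fold (fitted difference -0.86 ± 0.19 SE, adjusted p = 0.00912), and its adjusted p was 0.056 with slide as a block and 0.101 without both arrays. With a floor 2 times as high its difference was -0.04 (adjusted p = 0.944), with normexp background -0.09 (adjusted p = 0.94), and with a floor 0.5 times as high -1.39. On the uninjured arrays it was at the floor on 2 of 3.

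Leukocyte miRNAs gave 1 fall among 8 tested (against 5.61% of all tested miRNAs), that of miR-223, and a list median of -0.17. Its levels were 3.81, 3.49 and 3.10 at day 14, 2.83, 2.90, 2.80 and 3.10 at day 28, and 0.47, 0.59 and 0.33 in uninjured arteries. The lowest day 14 array and the highest day 28 array were level, and the fall was -0.56 ± 0.16 (SE; 1.47-fold, adjusted p = 0.0344). It remained above uninjured by 2.44 at day 28 (adjusted p = 1.39e-07), against 3.00 at day 14 (adjusted p = 7.47e-08). Its adjusted p was 0.149 with slide as a block and 0.256 without both arrays, and the call held in 24 of 41 alternatives. The lymphocyte-associated miR-150 was well above background on 1 of 3 arrays at day 14 and 3 of 4 at day 28 and was not called (0.83, adjusted p = 0.202), with replicate 2 of day 28 the highest at -3.49. The summed leukocyte signal was 3.87 to 4.43 at day 14 and 3.62 to 4.03 at day 28, which overlap, and 1.60 to 1.66 in uninjured arteries.

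The group of miR-17 to miR-92a with related clusters, which is linked to cell division, had 1 fall in 9 tested (against 5.61% of all tested miRNAs). This was miR-18a, with -0.65, -0.98 and -1.14 at day 14, -1.82, -1.35, -1.36 and -1.42 at day 28, and a difference of -0.57 ± 0.17 (SE; adjusted p = 0.0363, and 0.179 in the fit with the slide term; called in 22 of 41 alternatives). The list's median was 0.17, and miR-20a (-0.28, adjusted p = 0.352) and miR-20b (0.36, adjusted p = 0.367) were not called.

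Several groups showed no call, which does not show that they were level. Of the 9 injury-associated miRNAs, such as miR-21, miR-146a, miR-221 and miR-222, 0 were called in limma (1 higher at an unadjusted p under 0.05), with a median of 0.10. The member with the smallest p, miR-146b, had -2.01, -2.08 and -1.86 at day 14, -1.47, -1.37, -1.65 and -1.83 at day 28 and -4.82, -5.05 and -4.70 in uninjured arteries. Its difference was 0.40 (adjusted p = 0.145), and both days lay far above uninjured arteries. The let-7 family had 0 of 9 called in limma (2 higher at an unadjusted p under 0.05; median 0.11), led by let-7f at 0.31 (adjusted p = 0.129). The miR-199 and miR-214 group of mesenchymal cells had 0 of 5 called (0 at an unadjusted p under 0.05), with a median of -0.17 and a summed signal of 4.89 to 5.09 at day 14 and 4.67 to 4.96 at day 28. The groups of miR-297, miR-466, miR-467 and miR-669, many of them from a repeat-rich cluster in the gene Sfmbt2, had 0 of 27 called (0 at an unadjusted p under 0.05), with a median of 0.05. Of these 27, miR-466j, miR-467f and miR-467g lie on other chromosomes (10, 11 and 5) than Sfmbt2. Their sum ranged from 0.47 to 2.34 within day 14 alone, replicate 1 being the highest. The miR-99, miR-100, miR-125 and miR-10 families had 1 call in 7 (against 15.3% of all tested miRNAs): miR-125b-5p rose by 0.81 ± 0.18 (SE; adjusted p = 0.00986; 0.07 with slide as a block), while the list's median was 0.11 and miR-10a was at -0.38 (adjusted p = 0.187). The hypoxia-associated miR-210 had a difference of -0.12 (adjusted p = 0.782), which turned to 0.13 within slide 2.

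Grouped by seed, 22 seeds were held by at least 2 tested miRNAs with a RefSeq sequence. Of these, 4 had at least 2 called members, namely GUAAACA (miR-30c and miR-30e), UUUCAGU (miR-30a* and miR-30e*), UCAAGUA (miR-26a and miR-26b) and AGCACCA (miR-29b and miR-29c), as shown in the first block above. Only these 4 could have held called members in both directions, and 0 did. Their members are alike in sequence beyond the seed, and whether the probes tell them apart was not tested. The seed AGCAGCA had 1 called member of 6, miR-322 at -0.78, while the highest of its others was at 0.33. Of the 49 called miRNAs, 33 had at least 2 probes well above background on all 7 arrays, and in all 33 every such probe gave the same direction.

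Beside uninjured arteries, 126 of the 321 miRNAs differed at day 14 (39.3%), with 65 higher (20.2%) and 61 lower (19%), and 84 differed at day 28 (26.2%), with 54 higher (16.8%) and 30 lower (9.35%), in the same fit and by the same rule. These counts come from 3 and 4 injured arrays against the same 3 uninjured arrays and share arrays with the comparison above, so no overlap between them is given.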

How the data were processed

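Cy3-labelled total RNA was measured on 16 Agilent mouse miRNA arrays (Sanger release 12). The authors deposited scanner files of Agilent Feature Extraction 9.5.1.1, per the file headers, with the processed intensity of each of 13715 features after background handling. The authors also deposited a table of intensity values for 610 miRNAs. No spot of a mouse probe was saturated.

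Intensities were averaged over spots without an outlier mark, divided by each array's 75th percentile over the 395 of 1759 mouse probes well above background on all arrays, floored at 0.0181 (log2 -5.79) and taken to log2. A probe was detected on an array if 50% or more of its spots were flagged well above background. The brightest probe stood for a miRNA. The test covered 321 miRNAs detected throughout 1 group or more, 219 of them on all arrays. The number of arrays limits the precision. One model over the 5 groups was fitted with limma 3.58.1 in R 4.3.3 (package data.table, version 1.17.8), with no covariate, prior degrees of freedom of 1.98 and Benjamini-Hochberg adjustment. The steps were tested on simulated data.

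The 27 lists, written from general knowledge, and the comparison itself were chosen with earlier results of these data known. They were described by counts and medians, with no set test. Named were, per direction, the 12 largest called differences, up to 3 members of each list by p (all of lists with at most 4 tested), miRNAs detected on every array of 1 day and none of the other, and the 5 most like the miRNA of smallest p.

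Alternatives were other scalings, backgrounds, filters and floors, outlier spots kept, the mean over probes, Agilent's total gene signal, the deposited table of values, slide or replicate number as a block, slide 2 only, the arrays of the 2 days only, array weights, trended robust moderation, an added minimum difference of log2 1, and omission of each array with scaling and tested miRNAs kept. Array names without an arm were paired with RefSeq arms from general knowledge.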

Additional observations from a re-analysis of the deposited data

Results flagged for a closer look

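Among the 78 named miRNAs, 6 had a day 28 array far from the other 3 by Dixon's criterion, which chance meets in about 1 of 20 groups. Replicate 2 of day 28 was high in miR-200b (-1.35, others -5.79 to -5.51), miR-20b (0.30, others -0.95 to -0.83) and miR-467e (-3.68, others -5.76 to -5.55). Replicate 1 of day 28 was low in miR-18a (-1.82, others -1.42 to -1.35) and miR-20a (1.05, others 1.76 to 1.81). Replicate 4 was above the floor in miR-675-3p (-5.45, others -5.79).

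Probes for viral miRNAs, which entered no comparison, were well above background on at least 1 array of day 14 or day 28 and reached a higher unscaled signal there than on any uninjured array in 6 cases. The arrays differed in brightness: the 75th percentile used for scaling was 401 to 624.1 on uninjured arrays and 518.5 to 1432 on those of day 14 and day 28. The part of array brightness in the higher viral signals was not tested. Of these, 3 were also well above background on uninjured arrays and on all 7 injured ones: mcmv-miR-M23-1-5p reached 138.1 intensity units (highest uninjured 72.6), mghv-miR-M1-2 reached 110.9 (highest uninjured 70.3) and mcmv-miR-m88-1 reached 34.2 (highest uninjured 26.8). The other three were detected on no uninjured array. The mouse cytomegalovirus probe mcmv-miR-m01-2 reached 26.8 intensity units at day 28 (highest uninjured -0.22) and was well above background on 1 of 3 day 14 and 2 of 4 day 28 arrays. A second, mcmv-miR-M87-1, reached 16.3 (highest uninjured 8.34) on 1 of 3 day 14 arrays, and the gammaherpesvirus probe mghv-miR-M1-6 reached 18.2 (highest uninjured 0.48) on 1 of 4 day 28 arrays. All 6 lay below the lowest 75th percentile on the arrays of day 14 and day 28, 518.5, which was taken over the mouse probes detected on all arrays.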

How the results depend on the processing

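The count of 49 called miRNAs (31 higher, 18 lower) moved with the processing, while all of the 49 that could be tested kept their direction in each of the 41 alternatives run. Not every alternative could turn a direction. Other filters, trended robust moderation, the arrays of the 2 days only and the added minimum difference leave the difference of a miRNA as it was. Omission of an array of another group does so too. The rest reuse arrays on which the 49 were called, so a kept direction or call is no independent test. By scaling the count was 25 (13 higher) with the percentile over all mouse probes, 31 (14 higher) with median scaling, 38 (17 higher) with quantiles, and 0 with no scaling (9 higher and 10 lower at an unadjusted p under 0.05 in limma). It was 31 (18 higher) with normexp, 25 (7 higher) with the total gene signal and 25 (8 higher) with the authors' value table. Without a filter 10 were lower. With slide as a fixed block 28 were called (20 higher, 8 lower), with slide as a random block 49, within slide 2 0, and there without day 14 replicate 1 as well 0 (40 higher and 18 lower unadjusted). Without day 14 replicate 1 and day 28 replicate 2 the count was 13 (7 higher, 6 lower), and with an added minimum difference of log2 1 it was 8 (3 higher, 5 lower). Array weights gave 70. With only the arrays of the 2 days in the fit 37 were called (25 higher, 12 lower). Leaving out each array in turn gave 21 to 55 calls, 11 to 35 higher and 8 to 20 lower: 21 without day 14 replicate 1 (11 higher, 10 lower), 30 without day 14 replicate 2 (8 lower) and 33 without day 28 replicate 2 (11 lower). The causes were not tested, apart from fewer arrays in the fit.

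The replicate numbers do not pair the arrays: deviations of day 14 and day 28 arrays with the same number correlated at -0.45, -0.05 and 0.42. With the replicate block 34 were called, 10 of them lower, and with the replicate block and slide together 0 (32 higher and 10 lower unadjusted).

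Signs turned only for miRNAs that were not called. With the total gene signal miR-125a-5p was at -0.0025, miR-126-3p at -0.13, miR-375 at -0.23 and miR-532-3p at -0.092; with the authors' table miR-126-3p was at -0.11, miR-375 at -0.22 and miR-532-3p at -0.068. Quantiles gave miR-126-3p -0.077 and miR-16 -0.095, normexp miR-532-3p -0.027, and the mean over probes miR-210 0.0021. With slide as a block and within slide 2 the values were miR-133a 0.11, miR-200b -0.037, miR-210 0.13 and miR-375 -0.61, and there without day 14 replicate 1 as well miR-133a 0.14, miR-210 0.19 and miR-375 -0.41. The replicate block gave miR-126-3p -0.00014, and with slide miR-200b -0.086, miR-210 0.075, miR-214* 0.41 and miR-375 -0.24. Without both arrays miR-133a was at 0.015, miR-21* at 0.0071 and miR-375 at -0.16, and array weights gave miR-133a 0.072 and miR-375 -0.30. Leaving out arrays gave -0.030 (without day 28 replicate 3) to 0.13 in miR-126-3p, with -0.00014 without replicate 4, -0.40 to 0.015 in miR-133a, -0.083 (without day 28 replicate 2) to 1.39 in miR-200b, -0.48 to 0.0071 in miR-21* and -0.36 (without day 28 replicate 2) to 0.51 in miR-375, with -0.076 without day 14 replicate 3.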

Other observations

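The called miRNAs not yet described, with miR-30c-2* and miR-101b from families described above, are given here after their values were seen, and carry no further test. Higher at day 28 were miR-320 (0.61, adjusted p = 0.00467 by limma), miR-30c-2* (0.61, adjusted p = 0.0257), miR-101b (0.61, adjusted p = 0.00718), miR-374 (0.58, adjusted p = 0.0252), miR-194 (0.54, adjusted p = 0.038), miR-326 (0.53, adjusted p = 0.0318), miR-107 (0.42, adjusted p = 0.0444), miR-350 (0.34, adjusted p = 0.0363) and miR-345-5p (0.34, adjusted p = 0.0418). The seed relative of miR-107, miR-103, had 0.35 without a call (adjusted p = 0.0735). With slide as a block miR-320, miR-374 and miR-30c-2* were called, at 0.61, 0.70 and 0.86.

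In miR-350 both injured days lay above uninjured arteries. Its levels were -0.71, -0.78 and -0.66 at day 14, -0.31, -0.30, -0.34 and -0.55 at day 28, and -1.35, -1.53 and -1.32 in uninjured arteries. Against uninjured arteries it was higher by 0.68 at day 14 (adjusted p = 0.000265) and by 1.03 at day 28 (adjusted p = 6.09e-06). The passenger strand miR-135a* was lower at day 28, with -3.76, -4.09 and -4.59 at day 14, -4.75, -5.19, -4.78 and -4.67 at day 28 and a difference of -0.70 (adjusted p = 0.0258), and its adjusted p was 0.161 with slide as a block.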
